A study of Danio rerio with 9 samples.

Results

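Oxidative phosphorylation is run by 5 protein complexes of the inner mitochondrial membrane. Complex I (NADH dehydrogenase) and complex II (succinate dehydrogenase) feed electrons into the respiratory chain, complex III (cytochrome bc1) and complex IV (cytochrome c oxidase) pass them on to oxygen, and complex V (ATP synthase) uses the resulting proton gradient to make ATP. Complexes I, III, IV and V are built from subunits encoded by both the nuclear genome and the mitochondrial genome, whereas complex II is encoded by nuclear genes alone. The mitochondrial genes are transcribed as long precursors that are cut into single messages and polyadenylated, and mitochondria are inherited from the mother.

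The genes described here are the subunits of these complexes, taken as every row of the count table whose symbol, ignoring case, begins with NDUF, UQCR, COX4 to COX8, ATP5, or the mitochondrial prefixes for ND, CO, CYB and ATP genes, or is SDHA to SDHD. Assembly factors (NDUFAF and SDHAF genes), NDUFA4L2 and ATP5SL were left out. This gave 107 of 32520 gene IDs, of which 94 are nuclear and 13 mitochondrial, with 102 distinct symbols. By complex, the nuclear IDs numbered 38 for complex I, 5 for complex II, 8 for complex III, 23 for complex IV and 20 for complex V. NDUFA4 and its paralogue ndufa4b were placed in complex IV, where the protein is now known to belong. COX7A2L, a supercomplex factor, and atp5if1a and atp5if1b, inhibitors of the ATP synthase, came in through the rule by symbol.

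Polyadenylated RNA had been sequenced from whole embryos of the zebrafish (Danio rerio), taken 30 hours post fertilisation, in 3 pools of 30 embryos for each of 3 genotypes of npc2, which encodes a cholesterol-binding protein of the lysosome. Wild-type embryos (npc2+/+) came from crosses of wild-type siblings of the mutants' parents. Heterozygous embryos (Mnpc2+/m) and homozygous embryos (MZnpc2m/m) were siblings from shared crosses, told apart by phenotype, and by the usual zebrafish notation M and MZ mark a mutant mother. Thus genotype, mother and clutch cannot be told apart in either comparison with wild type, and this holds for the maternally inherited mitochondrial genome in particular, while homozygous and heterozygous embryos shared their crosses. The mutated gene, NPC2, was at 255.6 to 278.5 CPM (counts scaled to library size) in wild-type, 141.7 to 146.4 in heterozygous and 32.57 to 44.26 in homozygous pools. Libraries held 38564405 (wild-type replicate 1) to 69360234 (homozygous replicate 1) counts, at which 3 counts equal 0.0428 to 0.0777 CPM, for counting error only. Most low counts were even, so a fragment may have been counted as 2 reads, and these totals and this floor may then stand for fewer fragments than counts. Since whole embryos were used, fewer cells of a type and less RNA per cell cannot be told apart in any value below.

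Of the 107 members, 98 had enough counts to be tested, all 13 mitochondrial and 85 nuclear ones. The other 9 were at or near 0 in every library. NDUFA12, NDUFB5 and NDUFS4 are listed at 0 in all 9 libraries, and NDUFA8, NDUFAB1, NDUFB4, NDUFS1, cox7a1 and COX7A2L stayed under 0.3 CPM. Several of these encode subunits that complex I needs in every tissue, so a value at or near 0 is reported only as listed. Another 8 tested members had a mean under 1 CPM. The tests were made with edgeR on the whole table, and a gene was called when its adjusted p was under 0.05.

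Mitochondrially encoded subunit messages made up 2.91% to 3.15% of all counts in wild-type, 2.31% to 2.59% in heterozygous and 2.31% to 2.47% in homozygous libraries. Their summed level was 30350 ± 1570 CPM (SD, n = 3) in wild-type, 25090 ± 1810 in heterozygous and 23830 ± 774 in homozygous embryos. Both mutant groups therefore lay below all 3 wild-type libraries. Nuclear-encoded subunit messages summed to 10330 ± 217, 10440 ± 246 and 9390 ± 179 CPM in the same order. Here the heterozygous embryos were level with wild type (ratio 1.01), and homozygous embryos lay below both (ratio 0.909 to wild type). The ratio of homozygous to wild type for the mitochondrial sum was 0.785, and that of heterozygous to wild type was 0.827. No test was made on these sums.

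**Figure D1:**
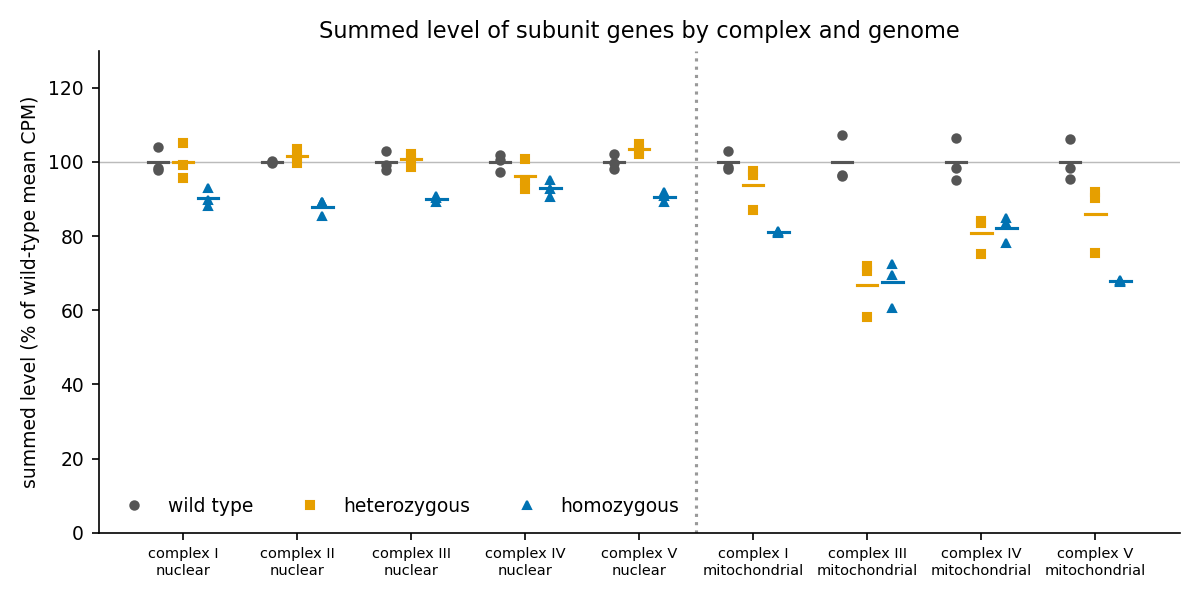
Summed CPM of the subunit genes of each complex and genome, as a percentage of the wild-type mean (y axis), with 1 point per library (n = 3 per genotype) and a bar at each genotype's mean. Nuclear sums of homozygous embryos lie near 90% of wild type for every complex, while mitochondrial sums are lower in both mutant genotypes and lowest for complex III (0.675 and 0.669 times wild type in homozygous and heterozygous embryos) and, in homozygous embryos, complex V (0.68 times).

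The mitochondrial sum fell unequally over the complexes. Complex III has a single mitochondrial subunit, cytochrome b, whose level in both mutant groups was close to 0.67 times wild type (ratios 0.675 and 0.669). The 3 mitochondrial subunits of complex IV summed to 0.821 times wild type in homozygous and 0.81 times in heterozygous embryos. For complexes I and V the mutant groups stood apart from each other. Complex I messages were at 0.812 times wild type in homozygous but 0.938 times in heterozygous embryos, and complex V messages at 0.68 and 0.86 times.

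In homozygous against wild-type embryos, 11 of the 13 mitochondrial genes fell and the other two, mt-nd4l and MT-ND6, did not pass the test. Over all 20375 genes tested, 44.5% were called in this comparison, 23.5% higher and 21.1% lower, and among the 6789 genes averaging 20 CPM or more, 59.4% were called, 26.6% higher and 32.9% lower. The share of mitochondrial genes called was 84.6%. Their median log2 fold change was -0.45, beside 0.02 for all genes. No mitochondrial gene was higher at an unadjusted p under 0.05 in edgeR, and DESeq2 and limma-voom called 0 higher. For 12 of the 13, every homozygous library lay below every wild-type library, an arrangement without overlap found for 53.9% of all genes, 28.6% higher and 25.3% lower.

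MT-CYB, which encodes cytochrome b, was at 3401, 3397 and 3789 CPM in wild-type, 2536, 2488 and 2057 in heterozygous and 2559, 2452 and 2136 in homozygous libraries. All 6 mutant libraries were below the wild-type range, and the mutant groups overlapped. The log2 fold change was -0.57 ± 0.10 (SE; adjusted p = 0.00184) in homozygous and -0.58 ± 0.10 (0.00288) in heterozygous against wild-type embryos. Between homozygous and heterozygous embryos it was 0.01 ± 0.10 (0.932).

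MT-ATP6, subunit a of the ATP synthase, through which protons pass, was at 3615, 3493 and 3884 CPM in wild-type, 3299, 3357 and 2787 in heterozygous and 2508, 2496 and 2514 in homozygous libraries. The 3 groups did not overlap. Against wild type it fell by 0.55 ± 0.06 on the log2 scale in homozygous (adjusted p = 8.51e-06) and by 0.22 ± 0.06 in heterozygous embryos (0.0164), and it was lower in homozygous than in heterozygous embryos (-0.33 ± 0.06, 0.000785). The heterozygous call was lost without wild-type replicate 3 (adjusted p of at most 0.0838).

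Of the complex IV core subunits, MT-CO1 and MT-CO2 carry the heme and copper centres of the oxidase. MT-CO1 was at 9042, 8630 and 9616 CPM in wild-type, 7800, 7909 and 7206 in heterozygous and 8121, 7963 and 7506 in homozygous libraries. MT-CO2 was at 3443, 3491 and 4106 CPM in wild-type, 2964, 2900 and 2440 in heterozygous and 2696, 2672 and 2502 in homozygous libraries. MT-CO3 was at 3884, 3731 and 4033 CPM in wild-type, 3166, 3198 and 2878 in heterozygous and 3301, 3264 and 3021 in homozygous libraries. In all 3 genes both mutant groups were lower than wild type and overlapped each other. The falls in homozygous embryos were -0.21 ± 0.05 for MT-CO1 (adjusted p = 0.00146), -0.49 ± 0.09 for MT-CO2 (0.00194) and -0.28 ± 0.05 for MT-CO3 (0.000126), and in heterozygous embryos -0.25, -0.41 and -0.33 (0.000631, 0.0082 and 5.72e-05).

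The complex I subunits of the mitochondrial genome form the membrane arm that pumps protons. MT-ND1 was at 1478, 1523 and 1590 CPM in wild-type, 1703, 1735 and 1606 in heterozygous and 1373, 1381 and 1381 in homozygous libraries. It was the only mitochondrial gene called higher in heterozygous than in wild-type embryos (log2 fold change 0.14 ± 0.04, adjusted p = 0.0192), a call lost without wild-type replicate 1 or 2 or heterozygous replicate 1 or 2 (adjusted p of at most 0.106). In homozygous embryos it was lower than in wild-type (-0.15 ± 0.04, 0.00643) and heterozygous embryos (-0.29 ± 0.04, 2.7e-05). MT-ND2 was at 1420, 1417 and 1445 CPM in wild-type, 1409, 1451 and 1402 in heterozygous and 1177, 1211 and 1255 in homozygous libraries. Wild-type and heterozygous libraries overlapped, and MT-ND2 was lower in homozygous embryos than in either (-0.23 ± 0.04 against each).

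MT-ND4 fell in homozygous embryos by 0.34 ± 0.04 (adjusted p = 4.91e-06) and in heterozygous embryos by 0.26 ± 0.04 (0.000191), with the mutant groups overlapping. MT-ND5 was at 1327, 1343 and 1374 CPM in wild-type, 1254, 1261 and 976 in heterozygous and 983.9, 997.5 and 983.3 in homozygous libraries, so that heterozygous replicate 3 sat with the homozygous libraries. It fell by 0.45 ± 0.08 in homozygous against wild-type embryos (0.0015). MT-ND3 fell by 0.47 ± 0.12 (0.0129), a call that without homozygous replicate 3 no longer passed (0.05 after rounding). MT-ND6, which in vertebrates lies on the opposite strand, was at 4.791 to 8.447 CPM over all libraries, with groups overlapping and a log2 fold change of -0.18 ± 0.18 (0.432).

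The reading frames of mt-atp8 and MT-ATP6, and of mt-nd4l and MT-ND4, overlap in vertebrates, so these small genes may share reads with their neighbours. mt-nd4l was at 183.1, 169.3 and 175.3 CPM in wild-type, 149.1, 160.1 and 92.2 in heterozygous and 124.3, 116.2 and 101.7 in homozygous libraries. Every mutant library was below wild type, with a log2 fold change of -0.62 ± 0.21 in homozygous embryos (adjusted p = 0.0507). mt-atp8 was at 19.53, 34.21 and 32.79 CPM in wild-type, 39.51, 36.94 and 3.294 in heterozygous and 4.709, 4.146 and 2.617 in homozygous libraries. All homozygous libraries and heterozygous replicate 3 were low. The log2 fold change of homozygous against wild-type embryos was -2.89 ± 0.89 (0.0402), a call lost on leaving out any library other than heterozygous replicate 3 (adjusted p of at most 0.111).

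**Figure D2:**
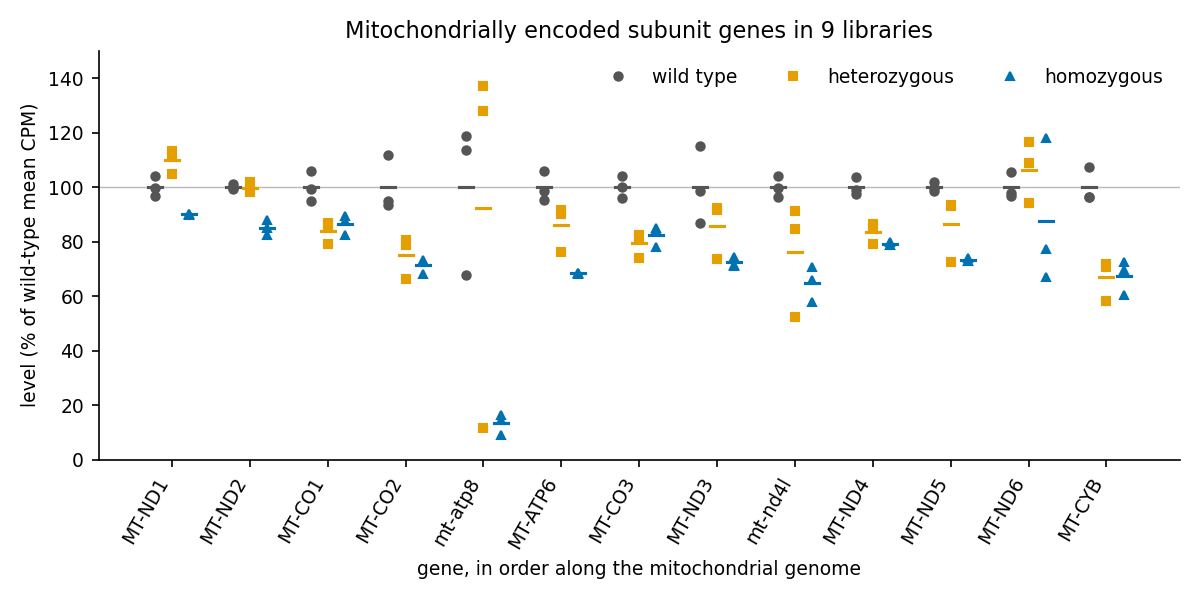
Level of each mitochondrially encoded subunit gene in the 9 libraries as a percentage of its wild-type mean CPM (y axis), with genes in their order along the mitochondrial genome (x axis) and bars at the mean of each genotype (n = 3). MT-ND1 and MT-ND2 of heterozygous embryos sit at 110% and 99.3% of wild type and MT-CYB at 66.9%, homozygous libraries lie below wild type for all genes but MT-ND6, and heterozygous replicate 3 is the lowest heterozygous point for every gene.

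In heterozygous against wild-type embryos 29.8% of all genes were called, 15.5% higher and 14.4% lower, and 45.1% of those averaging 20 CPM or more, 25.2% higher and 19.9% lower. Of the 13 mitochondrial genes, 6 fell (MT-ND4, MT-CYB, MT-CO1, MT-CO2, MT-CO3 and MT-ATP6) and MT-ND1 rose, a share called of 53.8%, with a median log2 fold change of -0.22. For 8 of the 13 every heterozygous library was below, and for 1 above, every wild-type library, beside 20.9% and 21.8% of all genes. Between homozygous and heterozygous embryos, where 39.8% of all genes were called (20.4% higher, 19.4% lower; 58.9% of those averaging 20 CPM or more, 22.6% higher and 36.3% lower), MT-ND1, MT-ND2, MT-ND5 and MT-ATP6 were lower in homozygous embryos (30.8% of 13). For 3 of the 13 the libraries of these groups did not overlap, all lower, beside 51.2% of all genes, 26.5% higher and 24.7% lower. The complex III and IV genes did not pass the test there, with log2 fold changes from -0.08 to 0.05. Heterozygous and homozygous embryos were each compared with the same wild-type libraries, so their falls against wild type are not independent.

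Heterozygous replicate 3 stood apart in these genes, with a mitochondrial sum of 23010 CPM beside 26060 and 26210 in replicates 1 and 2. Its nuclear subunit sum was 10700 CPM, above the 10210 and 10410 of the other two. Without it, 8 mitochondrial genes were lower in homozygous than in heterozygous embryos in place of 4, all of them complex I or V genes. MT-ND5 was then at -0.34 ± 0.04 (adjusted p = 3.45e-06), mt-nd4l at -0.43 (0.000412), MT-ND3 at -0.34 (0.0196) and mt-atp8 at -3.28 (0.000816). The falls against wild type then numbered 12 in homozygous embryos, with mt-nd4l added, and 6 in heterozygous embryos. Leaving out any other library instead cost MT-ND5 its call between homozygous and heterozygous embryos (from 0.0463 to at most 0.14). Over all alternatives that call was lost under 11 of 18.

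Along the mitochondrial genome, genes nearer the start of the usual order (MT-ND1, MT-ND2) had smaller falls against wild type than those towards its end (MT-ND5, MT-CYB). Over 11 genes, leaving out MT-ND6 and mt-atp8, Spearman's rho of the log2 fold change with position was -0.636 for homozygous and -0.501 for heterozygous against wild type, both of which use the same wild-type libraries, and 0.178 for homozygous against heterozygous embryos. The order was looked at after the values were seen, the genes share precursor transcripts and libraries, and the coefficients are given as a description. The 2 genes left out went against this order in homozygous embryos. There mt-atp8, 5th along the genome, had a log2 fold change of -2.89, and MT-ND6, 12th, one of -0.18 (0.09 in heterozygous embryos). The coefficients therefore depend on leaving them out, while mt-nd4l, which also overlaps its neighbour, was kept. The order was not strict among the 11 genes either. In homozygous embryos MT-CO1 and MT-CO3 were at 86.4% and 82.5% of wild type and MT-CO2, which lies between them, at 71.2%.

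Among the 85 nuclear members tested, 30 fell and 3 rose in homozygous against wild-type embryos, and 52 did not pass the test. The share called, 38.8%, was below that of all genes (44.5%) and of genes averaging 20 CPM or more (59.4%). The share lower, 35.3%, was above that of all genes (21.1%) but close to that of genes averaging 20 CPM or more (32.9%). The share higher was 3.53%, beside 23.5% and 26.6%. In direction the nuclear members were one-sided: 76 of 85 log2 fold changes were negative, with a median of -0.11 beside 0.02 for all genes. Every homozygous library was below every wild-type library for 43 of the 85 and above for 4, beside 25.3% and 28.6% of all genes. The falls were small. Among the 71 nuclear members that averaged 5 CPM or more, 27 fell and 2 rose, the falls ranged from 7.34% to 41.8%, and only SDHD and COX7A2 passed a log2 fold change of -0.5. Without homozygous replicate 2, 18 nuclear members were called lower in place of 30. The 3 called higher (ATP5MC3, atp5mea and cox8b) came down to 1 without wild-type replicate 3 or homozygous replicate 1 or 3.

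By complex, 10 of 31 complex I genes fell, 2 of 5 of complex II, 2 of 8 of complex III, 9 of 21 of complex IV and 7 of 20 of complex V, with medians from -0.14 (complexes I and II) to -0.07 (complex V). The shares lower ran from 25% (complex III) to 42.9% (complex IV), beside 21.1% of all genes and 32.9% of those averaging 20 CPM or more. The 3 genes that rose belong to complex V (ATP5MC3 and atp5mea) and complex IV (cox8b). In heterozygous against wild-type embryos 7 nuclear members fell and 4 rose, a share called of 12.9% beside 29.8% of all genes, with 43 log2 fold changes positive, 42 negative and a median of 0. The 7 were 3 without wild-type replicate 3 or heterozygous replicate 1, 4 without heterozygous replicate 2 and 11 without heterozygous replicate 3. Between homozygous and heterozygous embryos, which came from shared crosses, 23 of 85 nuclear members were lower in homozygous embryos and none was called higher. The share called, 27.1%, was below that of all genes (39.8%), with a median of -0.11. As a share lower, it was above that of all genes (19.4%) and below that of genes averaging 20 CPM or more (36.3%). At an unadjusted p under 0.05 edgeR found 1 higher, and DESeq2 and limma-voom called 0 higher. Of the 23, 11 were among the 20 complex V genes (55%) and 5, 2, 2 and 3 among complexes I, II, III and IV. Without heterozygous replicate 3 the count was 15, with 7 in complex V and no complex IV gene left, and NDUFB1, a complex I subunit, was called higher.

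**Figure D3:**
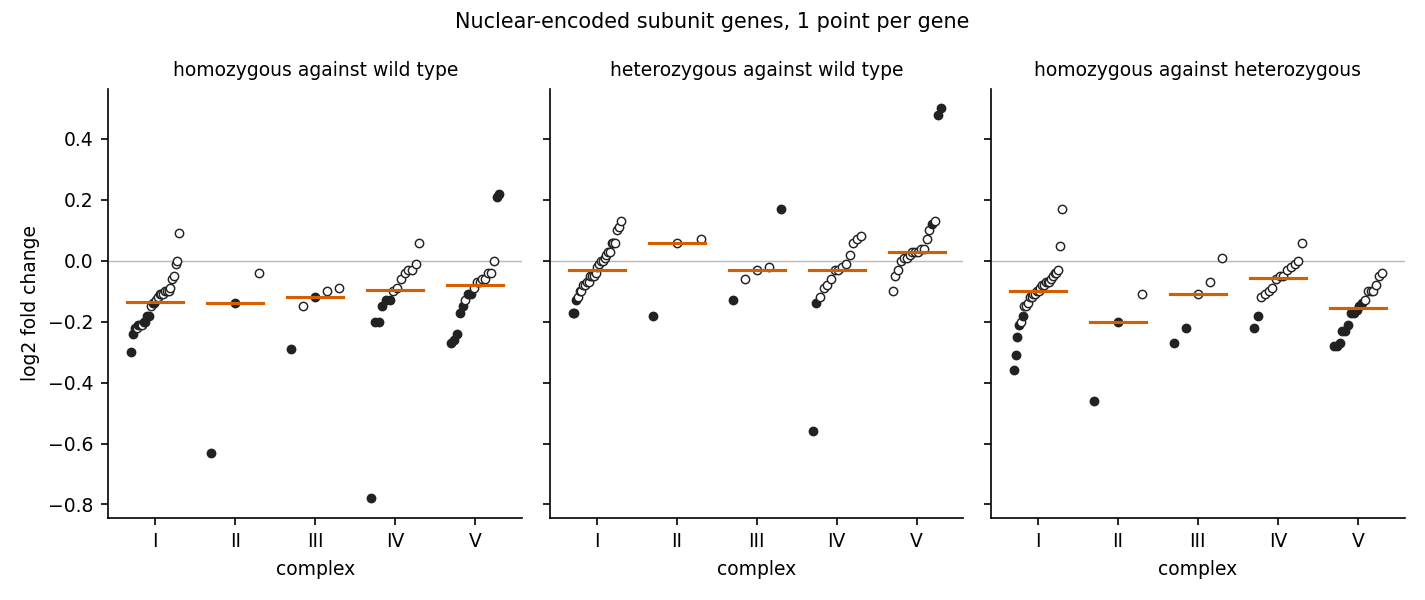
Log2 fold change (y axis) of each nuclear subunit gene averaging 5 CPM or more, by complex (x axis), for the 3 comparisons. NDUFA1, NDUFB9 and NDUFS7, whose libraries differed strongly within genotypes, are not drawn. Filled points passed the test (adjusted p under 0.05) and lines mark medians. Most points lie below 0 in both comparisons of homozygous embryos and around 0 in heterozygous against wild-type embryos, where ATP5MC3 and atp5mea (0.48 and 0.50) stand highest and COX7A2 (-0.56) lowest.

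Of the nuclear complex I genes averaging 5 CPM or more, NDUFS8, which carries iron-sulphur clusters of the arm facing the matrix, had the largest fall that passed the test in homozygous against wild-type embryos. It was at 99.34, 103.6 and 105.4 CPM in wild-type, 110.5, 108.2 and 103.3 in heterozygous and 87.45, 82.05 and 81.63 in homozygous libraries. Only the homozygous group stood apart, with log2 fold changes of -0.30 ± 0.05 against wild type (adjusted p = 9.26e-05) and -0.36 ± 0.05 against heterozygous embryos (1.45e-05). NDUFS6, an accessory subunit that binds zinc, fell by 0.24 ± 0.05 in homozygous (0.00148) and by 0.17 ± 0.05 in heterozygous embryos (0.0203). NDUFA9 fell by 0.22 ± 0.05 (0.00177) in homozygous embryos and by 0.13 ± 0.05 in heterozygous embryos (0.0491). The heterozygous call of NDUFS6 was lost without wild-type replicate 1 or 3 or heterozygous replicate 1 (adjusted p of at most 0.0814), and that of NDUFA9 on leaving out any wild-type library, heterozygous replicate 1 or 2 or homozygous replicate 1 (at most 0.186). NDUFB2, named after its values were seen, was lower in homozygous than in heterozygous embryos by -0.31 ± 0.05 (9.88e-05).

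Complex II oxidises succinate in the citric acid cycle. SDHD (ENSDARG00000030139), a membrane anchor of the complex, was at 65.6, 65.31 and 67.89 CPM in wild-type, 60.89, 60.58 and 54.51 in heterozygous and 43.63, 42.09 and 42.58 in homozygous libraries. The 3 groups did not overlap and stepped down from wild type to heterozygous to homozygous. The log2 fold change was -0.63 ± 0.05 in homozygous (adjusted p = 4.74e-08) and -0.18 ± 0.05 in heterozygous against wild-type embryos (0.0188), and -0.46 ± 0.05 between homozygous and heterozygous embryos (2.98e-06). The heterozygous call was lost without heterozygous replicate 3 (0.0668). SDHA, the flavoprotein that binds succinate, was at 183.6, 183.1 and 181.8 CPM in wild-type, 190.9, 192.5 and 189.1 in heterozygous and 167, 160.9 and 170.5 in homozygous libraries. It fell by 0.14 ± 0.04 against wild type (0.0122), a call lost without homozygous replicate 2 (0.0555), and by 0.20 ± 0.04 against heterozygous embryos (0.000919). SDHB, the iron-sulphur subunit, had log2 fold changes of -0.04, 0.07 and -0.11 in the 3 comparisons, none past the test, and SDHC and the other SDHD ID (ENSDARG00000055712) were under 0.5 CPM in every library.

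In complex III, UQCRC2, a core protein, was at 176.2, 182.2 and 183 CPM in wild-type, 168.9, 174.3 and 176.2 in heterozygous and 150.3, 144.9 and 149.1 in homozygous libraries. It fell by 0.29 ± 0.04 against wild type (adjusted p = 3.4e-05), while its paralogue uqcrc2a fell by 0.12 ± 0.05 (0.0454), a call lost on leaving out wild-type replicate 2 or 3, heterozygous replicate 2 or any homozygous library (at most 0.108). UQCRFS1, the Rieske iron-sulphur protein, was named after its values were seen. It was at 221, 229.1 and 234.3 CPM in wild-type, 253.2, 256.6 and 260.4 in heterozygous and 209.9, 209.9 and 217.1 in homozygous libraries. The heterozygous libraries were the highest, 0.17 ± 0.04 above wild type (0.00526), and homozygous embryos were 0.27 ± 0.04 below heterozygous ones (5.2e-05) but did not pass the test against wild type (-0.10 ± 0.04, 0.054).

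**Figure D4:**
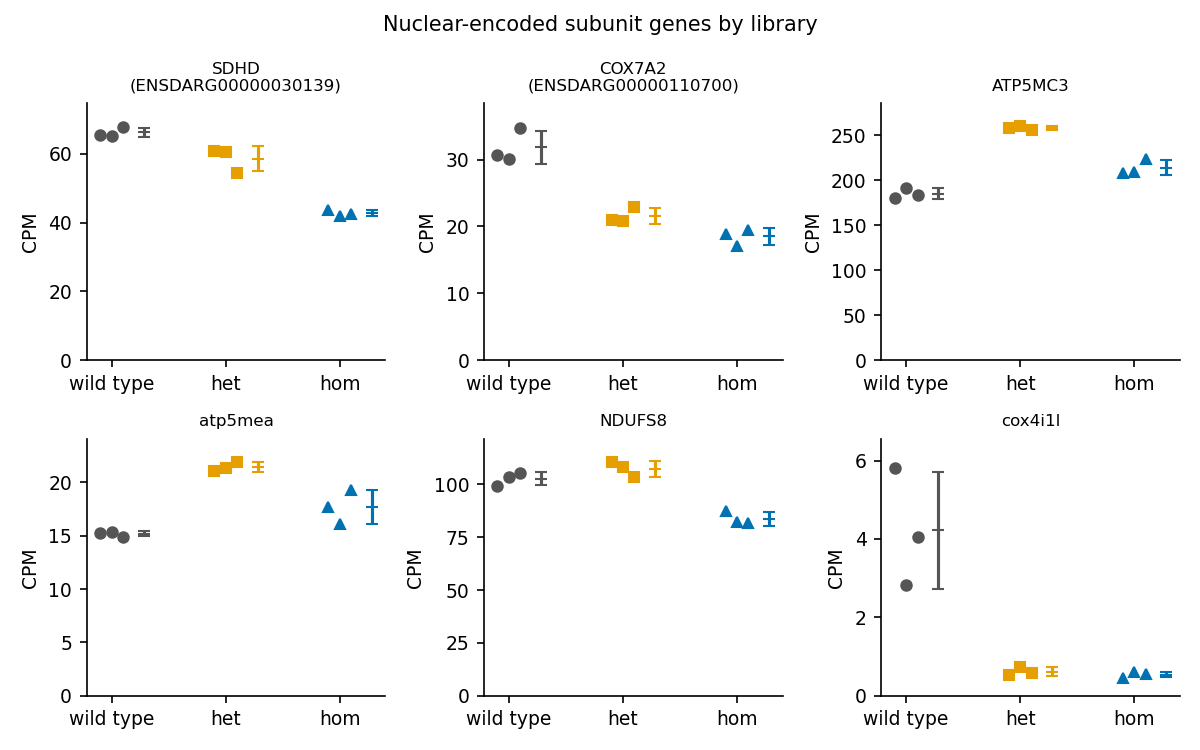
CPM (y axis, from 0) of 6 nuclear subunit genes in each library, with the mean ± SD of each genotype (n = 3; het, heterozygous; hom, homozygous). SDHD and COX7A2 step down over the genotypes, ATP5MC3 and atp5mea are highest in heterozygous libraries, NDUFS8 is low in homozygous libraries only, and cox4i1l is at 2.819 CPM or more in wild-type and under 0.75 CPM in all mutant libraries.

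Complex IV has the most duplicated and tissue-specific subunits. COX7A2 (ENSDARG00000110700) was at 30.66, 30.15 and 34.68 CPM in wild-type, 20.98, 20.8 and 22.93 in heterozygous and 18.93, 17.09 and 19.49 in homozygous libraries. No group overlapped another. It fell by 0.78 ± 0.07 in homozygous (adjusted p = 1.37e-07) and by 0.56 ± 0.07 in heterozygous embryos (1.99e-05), and by 0.22 ± 0.07 between them (0.0223), a call lost without heterozygous replicate 3 or homozygous replicate 2 (at most 0.129). The other ID with this symbol, ENSDARG00000053217, was at 64.55 to 73.88 CPM in all libraries and did not pass the test in any comparison. The share of ENSDARG00000110700 in the counts of both IDs was 31.4% ± 1.46 in wild-type, 22.9% ± 1.03 in heterozygous and 21.4% ± 0.593 in homozygous embryos. The sequences of these IDs were not compared, and whether reads were divided between them in counting was not tested.

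The COX4 subunit, which takes part in the regulation of the oxidase by ATP, is encoded by 3 IDs. COX4I1 held most of its counts and fell by 0.20 ± 0.05 in homozygous embryos (adjusted p = 0.00561). COX4I2, in mammals the isoform of lung and of low oxygen, was at 4.869, 3.289 and 4.299 CPM in wild-type, 3.028, 3.073 and 3.257 in heterozygous and 2.996, 2.859 and 2.384 in homozygous libraries, and fell by 0.58 ± 0.15 in homozygous embryos (0.00514). cox4i1l was at 5.801, 2.819 and 4.041 CPM in wild-type, 0.5252, 0.7429 and 0.5791 in heterozygous and 0.4566, 0.5968 and 0.5608 in homozygous libraries. Every mutant library was below 0.75 CPM, with log2 fold changes of -2.96 ± 0.26 (7.18e-08) and -2.77 ± 0.25 (6.74e-07) in homozygous and heterozygous against wild-type embryos and -0.20 ± 0.28 (0.611) between homozygous and heterozygous embryos. The summed level of the COX4 IDs, nearly all of it COX4I1, was 273 ± 12.6, 248 ± 18.5 and 233 ± 9.09 CPM in wild type, in heterozygous and in homozygous embryos.

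Of the other complex IV isoforms, cox7b, a small structural subunit, fell by 0.20 ± 0.05 in homozygous (adjusted p = 0.00283) and by 0.14 ± 0.05 in heterozygous embryos (0.0375). The heterozygous call of cox7b was lost without wild-type replicate 1 or 3 or heterozygous replicate 1 or 2 (at most 0.154). The abundant cox6a1 (ENSDARG00000022438) and NDUFA4 fell by 0.13 ± 0.05 each in homozygous embryos (0.0496 and 0.0472). Those calls were lost on leaving out 5 libraries for cox6a1 (wild-type 1 and 2, heterozygous 2, homozygous 1 and 2) and 7 for NDUFA4 (all but wild-type 2 and heterozygous 3), with adjusted p-values of at most 0.169 and 0.149. cox6b1, cox6b2 and cox8a did not pass the test in any comparison, with log2 fold changes from -0.09 to 0.06. cox8b, a muscle isoform in mammals, was called higher (0.90 ± 0.30, 0.0221) and COX6A1 (ENSDARG00000054588) lower (-2.20 ± 0.70, 0.0163) in homozygous embryos, both at or below about 1 CPM. This COX6A1 ID was at 0.1566 to 0.3674 CPM in wild-type and 0 to 0.1142 in homozygous libraries, the latter close to the floor of 3 counts. The cox8b call was lost without wild-type replicate 2 or 3 or homozygous replicate 1 or 3 (at most 0.0858), and the COX6A1 call without wild-type replicate 3 or homozygous replicate 2 (at most 0.0834).

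Complex V held 2 of the 3 nuclear members called higher in homozygous and 3 of the 4 called higher in heterozygous against wild-type embryos. These were 10% and 15% of its 20 genes, beside 23.5% and 15.5% of all genes called higher. Without heterozygous replicate 3, complex V held 2 of the 3 called higher in heterozygous embryos. ATP5MC3, which encodes the c subunit of the rotating ring, was at 180.3, 192 and 183.6 CPM in wild-type, 258.6, 260.1 and 255.8 in heterozygous and 208.6, 209.6 and 223.3 in homozygous libraries. The groups did not overlap, and the heterozygous libraries were highest. It rose by 0.48 ± 0.04 in heterozygous (adjusted p = 6.86e-07) and by 0.21 ± 0.04 in homozygous embryos (0.00108) and was 0.27 ± 0.04 lower in homozygous than in heterozygous embryos (9.33e-05). The other c-subunit genes did not share this pattern. atp5mc1 was at 235.3, 234.7 and 242 CPM in wild-type, 230.3, 229.1 and 253.9 in heterozygous and 203.7, 192.9 and 192.8 in homozygous libraries, a fall of 0.27 ± 0.05 in homozygous embryos (0.000177). atp5mc3b fell by 0.24 ± 0.04 (0.000318).

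The summed level of the 3 c-subunit genes was 885 ± 31.5, 928 ± 19.4 and 802 ± 8.61 CPM in wild type, in heterozygous and in homozygous embryos. ATP5MC3 made up 20.9% ± 0.846 of that sum in wild-type, 27.8% ± 0.8 in heterozygous and 26.7% ± 0.968 in homozygous embryos, so its share was higher in both mutant groups although the sum was lowest in homozygous embryos. These genes encode the same mature protein in mammals with different import sequences. atp5mea, subunit e, which helps ATP synthase form dimers, was at 15.28, 15.35 and 14.92 CPM in wild-type, 21.07, 21.34 and 21.95 in heterozygous and 17.72, 16.15 and 19.3 in homozygous libraries. It rose by 0.50 ± 0.07 in heterozygous (adjusted p = 6.38e-05) and by 0.22 ± 0.07 in homozygous embryos (0.0203), the latter call being lost without wild-type replicate 3 or homozygous replicate 1 or 3 (at most 0.104).

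ATP5F1A and ATP5F1B encode the alpha and beta subunits of the catalytic head. ATP5F1A was at 1196, 1216 and 1225 CPM in wild-type, 1212, 1199 and 1158 in heterozygous and 1011, 1009 and 1014 in homozygous libraries. Its homozygous libraries lay well below the others, a fall of 0.26 ± 0.04 against wild type (adjusted p = 1.89e-05) and of 0.23 ± 0.04 against heterozygous embryos (6.96e-05). ATP5F1B, named after its values were seen, rose by 0.12 ± 0.04 in heterozygous (0.0252) and fell by 0.11 ± 0.04 in homozygous embryos (0.0266). The heterozygous call of ATP5F1B was lost without heterozygous replicate 3. The inhibitor gene atp5if1a was at 44.31 to 51.26 CPM in all libraries and passed no test, and atp5if1b was at 0.1427 to 0.2827 CPM in all libraries but heterozygous replicate 2, where it was at 4.339 CPM.

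Heterozygous levels were also compared with the midpoint of wild type and homozygous embryos on the log2 scale. This contrast called 33.7% of all genes, 16.7% above and 17% below the midpoint, and 52% of those averaging 20 CPM or more, 30.8% above and 21.2% below. Of the 85 nuclear members 14 were above the midpoint (16.5%), a share close to that of all genes, and 2, cox4i1l and COX7A2, were below it (2.35%). Complex V held 7 of the 14, complex I 4 (NDUFS8, NDUFB2, ndufab1b and NDUFA6), complex II 2 and complex III 1. All 20 complex V log2 differences from the midpoint were above 0, with a median of 0.10, beside -0.01 for all genes. The contrast uses the same libraries as the comparisons above and is no independent test of them. Without heterozygous replicate 2, 9 members were above the midpoint in place of 14, and the 2 below it came down to 1 without wild-type replicate 3, heterozygous replicate 1 or 2 or homozygous replicate 1 or 3.

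Most members were even between libraries of a genotype, and a few were not. Of the 90 members with a mean of at least 1 CPM, 80 had no genotype in which the highest library exceeded the lowest by over 1.5 times. In 6, named after their values were seen, the highest was over 3 times the lowest in some genotype. NDUFB9, a complex I subunit, was at 11.29, 13.25 and 0.4409 CPM in wild-type, 13.42, 12.66 and 30.57 in heterozygous and 0.1998, 11.94 and 12.57 in homozygous libraries, so the low values fell in wild-type replicate 3 and homozygous replicate 1. NDUFS7, an iron-sulphur subunit, ranged from 0.2283 to 23.77 CPM, and was highest in heterozygous replicates 2 and 3 and wild-type replicate 3 (23.77, 11.8 and 10.73). NDUFA1 ranged from 2.462 to 18.86 CPM. Its high values were in wild-type replicates 1 and 2 and heterozygous replicate 3, and its homozygous libraries were at 2.851 to 4.303. The other three were mt-atp8, atp5meb and ndufa4b, with largest ratios within a genotype of 12, 8.13 and 7.72. No nuclear gene of these 6 passed the test in any comparison, and their standard errors on the log2 scale were 0.92 or more in the 3 comparisons between genotypes.

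**Figure D5:**
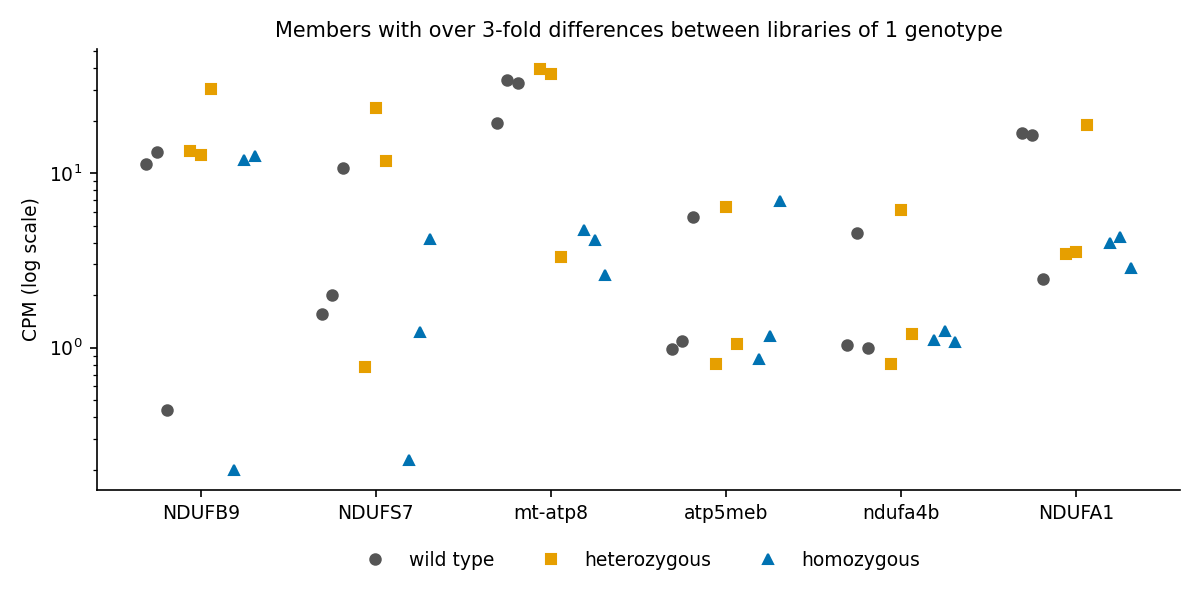
CPM on a log scale (y axis) of the 6 members with at least 1 CPM whose libraries of a genotype differed by over 3 times, with 1 point per library. For NDUFB9, NDUFS7, atp5meb, ndufa4b and NDUFA1 the high and low libraries fall in more than 1 genotype, and for mt-atp8 all 3 homozygous libraries and heterozygous replicate 3 are low.

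Genes that serve the same complexes were read from lists that hold no member. The counts from these lists stand beside 21.1% of all genes called lower and 23.5% higher in homozygous against wild-type embryos. Of the complex I assembly factors, 6 of 17 tested fell and 1 rose in homozygous against wild-type embryos (median -0.11), among them ACAD9 (-0.48 ± 0.07, adjusted p = 5.24e-05) and NDUFAF1 (-0.40 ± 0.07, 0.000136), while COA1 rose (0.52 ± 0.10, 0.000278). Of 20 complex IV assembly genes 3 fell and 2 rose. higd1a, a hypoxia-inducible protein that binds the oxidase, stood at 15.5 ± 1.94, 30.4 ± 0.938 and 42.9 ± 0.917 CPM in wild type, in heterozygous and in homozygous embryos. It rose by 1.46 ± 0.07 in homozygous (5.72e-11) and by 0.97 ± 0.07 in heterozygous embryos (8.63e-08). COX10, which makes the heme of the oxidase, had no counts in wild type and 3.74 ± 0.433 and 2.61 ± 0.26 CPM in heterozygous and homozygous embryos. As for the members at 0 above, the wild-type value is reported only as listed. Whether it comes from annotation or read mapping was not tested. Of the 3 ATP synthase assembly genes tested 2 fell, atpaf1 by 0.27 ± 0.06 (0.00145) and ATPAF2 by 0.50 ± 0.15 (0.0104).

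Of the electron carrier genes, cycsb, cytochrome c, was at 248 ± 16, 239 ± 6.49 and 186 ± 5.75 CPM in wild type, in heterozygous and in homozygous embryos and fell by 0.41 ± 0.05 (adjusted p = 3.52e-06), and CYC1, the cytochrome c1 of complex III, fell by 0.16 ± 0.04 (0.0087). The citric acid cycle genes, with the pyruvate dehydrogenase subunits, had 11 of 19 lower and 1 higher in homozygous embryos (median -0.19). Those lower included SUCLA2, a subunit of succinyl-CoA ligase (-0.39 ± 0.04, 9.86e-07), and DLST, part of the oxoglutarate dehydrogenase complex (-0.77 ± 0.08, 1.36e-06). The 1 higher was FH (5.44, 0.000289), which also rose in heterozygous embryos (5.08, 0.00089). Whether these large values come from annotation or read mapping was not tested. Of all genes, 21.1% were called lower and 23.5% higher in homozygous, and 14.4% and 15.5% in heterozygous against wild-type embryos. In heterozygous against wild-type embryos 2 of the 19 fell and 1 rose, and DESeq2 called 5 and limma-voom 3 lower. Of 17 genes on a list of regulators, 3 fell and 2 rose in homozygous, and 2 fell and 4 rose in heterozygous against wild-type embryos. PPARGC1A, a coactivator of genes for mitochondrial biogenesis, was at 16.8 ± 0.827, 14.4 ± 0.397 and 12.4 ± 0.721 CPM and fell by 0.43 ± 0.07 in homozygous embryos (0.00015). YY1 also fell there (-0.44, 8.17e-07), while NFE2L2 (0.74, 7.98e-08) and pprc1 (0.43, 0.0496) rose. The pprc1 call was lost under 9 of 19 alternatives. NRF1, a transcription factor of respiratory genes named after its values were seen, had a log2 fold change of -0.04 ± 0.05 (0.592) in homozygous embryos and rose by 0.21 ± 0.05 in heterozygous embryos (0.0038). Of the 22 genes on a list of hypoxia-responsive genes, which include glycolytic enzymes, 9 fell and 6 rose in homozygous embryos, and 10 fell and 3 rose in heterozygous against wild-type embryos. Between homozygous and heterozygous embryos 9 of the 22 were higher and 1 lower in homozygous embryos, beside 20.4% and 19.4% of all genes. LDHA, a lactate dehydrogenase subunit, fell in both comparisons with wild type, by 0.52 and 0.57 (1.48e-07 and 2.88e-07), as did EGLN3 (-4.72 and -4.62). PFKFB4 rose in both (1.57 and 0.31). IGFBP1 rose in homozygous (1.26) and fell in heterozygous embryos (-1.18).

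Among genes that copy, transcribe and process mitochondrial DNA and its RNA, 5 of 26 rose and 2 fell in homozygous against wild-type embryos, where DESeq2 called 2 and limma-voom 4 higher (all genes in edgeR, 23.5% higher and 21.1% lower). In heterozygous against wild-type embryos 10 of the 26 rose, and DESeq2 called 11 and limma-voom 10 higher (all genes in edgeR, 15.5%). edgeR found 1 lower at an unadjusted p under 0.05 in the heterozygous comparison, and DESeq2 and limma-voom called 0 lower. Among the 5 that rose in homozygous embryos were top1mt (0.58, adjusted p = 4.73e-05) and TFB1M (0.41, 0.028). The 2 that fell were HSD17B10 (-0.16, 0.0393) and LRPPRC. Leaving out single libraries cost TFB1M and HSD17B10 their calls (at most 0.157 and 0.193). LRPPRC, which stabilises mitochondrial messages, fell by 0.33 ± 0.06 in homozygous embryos (0.000586) and had a log2 fold change of 0.05 ± 0.06 (0.617) in heterozygous embryos. Its values were 101 ± 5.44, 104 ± 3.94 and 80.4 ± 8.21 CPM in wild type, in heterozygous and in homozygous embryos. The 2 genes of the mitochondrial transcription machinery TFAM and POLRMT, named after their values were seen, were higher in heterozygous than in wild-type embryos (0.24 ± 0.07, 0.0235, and 0.26 ± 0.07, 0.012), and in homozygous embryos their log2 fold changes were 0.10 ± 0.08 (0.322) and -0.08 ± 0.07 (0.383). In heterozygous against wild-type embryos 6 mitochondrial messages were called lower and MT-ND1 higher. Of these 26 genes 10 were called higher there and none lower, beside 25.2% higher of all genes averaging 20 CPM or more. A link between these genes and the messages was not tested.

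The 68 tested genes of the mitochondrial ribosome, which translates the 13 mitochondrial messages, had 25 lower and 1 higher in homozygous against wild-type embryos (median -0.16), 11 higher in heterozygous against wild-type embryos (median 0.07), and 40 lower in homozygous than in heterozygous embryos (median -0.22). In the first comparison 23.5% of all genes were called higher and 21.1% lower. In the second 15.5% were higher, and in the third 19.4% were lower. Among genes averaging 20 CPM or more, these shares were 26.6%, 32.9%, 25.2% and 36.3%. The nuclear subunit genes had medians of -0.11, 0 and -0.11 in the same comparisons. MRPS17 and MRPS24 fell by 0.45 ± 0.08 (adjusted p = 0.000131) and 0.48 ± 0.09 (0.000279) in homozygous against wild-type embryos, and mrpl58 rose by 0.69 ± 0.12 (0.000198).

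Markers of several cell types moved with genotype in the same libraries. Of all genes, 21.1% were called lower and 23.5% higher in homozygous, and 14.4% and 15.5% in heterozygous against wild-type embryos. The 15 skeletal muscle marker IDs, from a tissue rich in mitochondria, summed to 49030 to 51240 CPM in wild-type, 43350 to 44530 in heterozygous and 35670 to 38470 in homozygous libraries. Of the 14 tested, 11 fell in homozygous against wild-type embryos (median -0.38) and 8 in heterozygous against wild-type embryos (median -0.19). Erythroid markers summed to 3182 to 3377, 2637 to 2878 and 2361 to 2442 CPM, with all 6 tested lower in homozygous embryos. Neural progenitor markers fell in 8 of 9 (median -1.09) and neuron markers rose in 8 of 9 (median 0.40) in homozygous embryos. Ionocyte markers summed to 368.4 to 380, 355.7 to 367.4 and 306.1 to 316.5 CPM, with 1 of 5 tested higher and 1 lower in homozygous against wild-type embryos, and all 3 myeloid markers tested rose there (median 0.66). The 6 cardiac markers tested held 1 that rose and 5 that did not pass, with sums of 178.9 to 201.2 CPM over all libraries. The muscle, erythroid, neural progenitor and ionocyte sums were highest in wild-type, lower in heterozygous and lowest in homozygous embryos. The mean mitochondrial sum had this order, but its heterozygous and homozygous libraries overlapped. The mitochondrial sums of complexes III and IV did not have it (2360 and 13490 CPM in heterozygous, 2382 and 13680 in homozygous embryos). Nor did the nuclear sum (10330, 10440 and 9390 CPM in wild type, in heterozygous and in homozygous embryos). Neural progenitor markers summed to 1368 to 1403, 1281 to 1359 and 922 to 953.2 CPM. Neuron (1516 to 1589, 1526 to 1618 and 2135 to 2298 CPM) and myeloid sums (20.92 to 25.22, 27.17 to 30.12 and 35.21 to 38 CPM) were highest in homozygous embryos. The called ionocyte genes split, with ATP1B1 lower (-0.53) and foxi3a higher (0.37) in homozygous against wild-type embryos. The part of these markers in the subunit values was not tested.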

How the data were processed

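The authors deposited raw counts (whole numbers, not normalized) for each gene of 9 libraries. Per the submitters' processing notes, reads were handled with cutadapt 1.18, HISAT2 2.1.0 and featureCounts 1.6.3 on GRCz11 (danRer11). Which annotation release and strand setting were used, and how multi-mapping reads were treated, is not given in the sources used here. Values of near-identical copies and overlapping or antisense genes are therefore uncertain one by one. Even numbers made up 96.3% to 97.5% of each library's values from 1 to 19, so both mates of a fragment may have been counted. The totals are then not fragment numbers, and dividing all counts by 2 moved no count of members called by over 1.5 times. Symbols come from a names table given with the data (29201 of 32520 IDs), and IDs are printed where a symbol occurs more than once.

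Comparisons were tested with the robust quasi-likelihood F test of edgeR 4.0.16 in R 4.3.3. All 9 libraries entered 1 fit of the deposited counts without a replicate block, with TMM scaling (factors 0.981 to 1.02), the default low-count filter and Benjamini-Hochberg adjustment over 20375 genes per comparison. Every adjusted p printed for a gene is edgeR's, unless another tool is named. Values after ± are SDs for CPM (n = 3 pools) and approximate standard errors for log2 fold changes (from the F statistic of that contrast). CPM were TMM-scaled. They are not per length, so levels are not compared between genes. The pools of a genotype are separate pools, but their clutches and days are not named, so the p-values reflect the spread of these pools, which may be technical.

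The rule for named members took all mitochondrial genes, all complex II genes, the isoform families, the ATP synthase inhibitors, per complex up to 3 called genes in each direction with at least 5 CPM (homozygous against wild type), and 2 in each direction in the other comparisons. Up to 2 called genes in each direction were named per related list, and not all of these are described. Members, lists and rule were chosen with earlier results of these data known. The gene order along mitochondrial DNA is that of the RefSeq table. Promoter motifs were not analysed here.

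Alternatives were DESeq2 1.42.0, limma-voom (limma 3.58.1), RLE and upper-quartile scaling, scaling without mitochondrial genes, other low-count filters, a fit of 2 genotypes, counts divided by 2, a 1.2-fold limit, a replicate block and leaving out each library. The procedure was also run on simulated counts. The changes put into them were larger than most member changes reported here, so that run does not bear on changes of this size.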

Additional observations from a re-analysis of the deposited data

How the results depend on the processing

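Genes outside the rule for named genes, such as NDUFB2, UQCRFS1, ATP5F1B, NRF1, TFAM and POLRMT, were not followed one by one under all alternatives. No gene named by that rule that passed the test changed sign under the alternatives run. Some that did not pass did, among them mt-atp8 (-0.71 to 0.39) and ndufa4b (-1.17 to 1.43) in heterozygous against wild type, and ndufa4b (-1.33 to 0.18) and cox6b1 (-0.12 to 0.16) in homozygous against wild type. Scaling by RLE, upper quartiles or DESeq2 moved the median log2 fold change of all genes by at most 0.015 in size, and leaving the mitochondrial genes out before scaling by 0. With a 1.2-fold limit added, homozygous against wild type kept 8 nuclear falls and 1 rise (30 and 3 without it), heterozygous against wild type 2 nuclear falls and 2 rises (7 and 4) and 3 mitochondrial falls and 0 rises (6 and 1), homozygous against heterozygous 8 nuclear and 2 mitochondrial falls (23 and 4), and the midpoint contrast 2 above and 1 below (14 and 2), since most changes were small. Fitting the 2 genotypes alone left 4 nuclear falls in heterozygous against wild type, and limma-voom left 1 member below the midpoint. The cause was not tested. Replicate numbers were not used to pair the samples. Same-numbered libraries correlated at -0.0242 to 0.0848 in their deviations from group means. Heterozygous and homozygous libraries, from shared crosses, were at 0.0565, 0.0565 and 0.0848 when same-numbered and at -0.0764 to 0.0267 otherwise. Whether a number marks a shared cross was not tested. With the replicate block, 1 nuclear member was higher in homozygous than in heterozygous embryos in place of 0, and no other count of members moved by over 1.5 times. The block cost MT-ND3, mt-atp8 and cox6a1 their calls in homozygous against wild type, MT-ATP6 in heterozygous against wild type and MT-ND5 in homozygous against heterozygous.

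Leaving out each library in turn gave 18 to 32 nuclear falls and 1 to 3 rises, and 9 to 12 mitochondrial falls and 0 to 0 rises, in homozygous against wild type. For heterozygous against wild type the ranges were 3 to 11 and 3 to 5 for nuclear genes and 5 to 7 and 0 to 1 for mitochondrial genes. For homozygous against heterozygous they were 15 to 31 and 0 to 1, and 3 to 8 and 0 to 0. The midpoint contrast gave 9 to 20 above and 1 to 2 below. Alternatives for the midpoint contrast were added after the data were seen. Members under 1 CPM are limited by depth.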
